A study of Homo sapiens with 5 samples.

Results

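Lipoxin B4 was compared with no stimulus in MonoMac6 cells, a long-established monocytic cell line of human origin. The comparison rests on 2 of the 5 arrays of the series, chosen by their sample titles: 1 array of cells cultured with lipoxin B4 at 100 nM for 12 h, and 1 array of unstimulated cells. The other 3 arrays, of cells cultured with leukotriene B4, leukotriene C4 or lipoxin A4 at the same dose and time, served as the yardstick for how far single arrays differ. Each eicosanoid was added from a DMSO stock, and the labels do not state whether DMSO alone went to the unstimulated cells. RNA was total RNA hybridised to whole-genome GeneChip arrays, and MonoMac6 is a single line, so cells of other donors are not represented. With 1 array per condition there is no replicate, no test and no measured error, and every difference below describes these arrays.

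Lipoxins are trihydroxylated fatty acids that cells make from arachidonic acid by the joint action of more than 1 lipoxygenase, and they are known as mediators of the resolution of inflammation. Lipoxin A4 binds the formyl peptide receptor FPR2 on myeloid cells. Lipoxin B4 is its positional isomer, with a hydroxyl group at another carbon, and its receptor is not settled. Leukotrienes B4 and C4 arise from the same precursor and are best known for leukocyte attraction and for smooth muscle contraction.

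Of 15299 genes measured above a floor signal of 48.6 on at least 1 array, 139 (0.909%) were at least 2-fold higher and 195 (1.27%) at least 2-fold lower with lipoxin B4 than in unstimulated cells. The corresponding counts were 129 and 225 for leukotriene B4, 215 and 217 for leukotriene C4, and 154 and 191 for lipoxin A4, each against the same unstimulated array, which the 4 comparisons share. The number of 2-fold differences with lipoxin B4 was therefore of the size that each of the other stimulated arrays gave. Dim genes made up most of it: 87 of the higher and 137 of the lower genes had a mean signal under 100, and 3 and 13 had a mean signal over 500. Of the genes counted at 2-fold, 41.6% were higher. This share was 20.6% when each array was scaled by 1 factor in place of quantile normalization. It was 49.7% when each gene was matched to genes of like signal. Among genes counted at 3-fold it was 51.6%, so the excess of lower genes depended on the setting. Where a value lay under the floor it was set to the floor, and the difference is then a bound, written as at least N-fold.

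The choice of scaling mattered because very bright probe sets were dimmer on the lipoxin B4 array. Its highest deposited signal was 39961, against 49067 to 56220 on the other 3 stimulated arrays and 53598 on the unstimulated array. With 1 factor per array, genes with a mean signal over 10000 had a median log2 difference from unstimulated cells of -0.13 with lipoxin B4, 0.00 with leukotriene B4, 0.12 with leukotriene C4 and 0.00 with lipoxin A4. Dim genes lay low as well by 1 factor, with a median of -0.12 at signals of 100 to 200 with lipoxin B4. The 51 measured cytosolic ribosomal protein genes, which are among the brightest, had a median of -0.39 by 1 factor, -0.26 when each gene was matched to genes of like signal, and -0.00 after quantile normalization. A lower level of ribosomal protein genes with lipoxin B4 is thus present or not depending on the scaling, and no direction is given for them. All values below are after quantile normalization, which makes the spread of signals the same on every array. The ratio of 3′ to 5′ signal, a sign of RNA integrity, was 1.13 for actin and 1.03 for GAPDH with lipoxin B4, and 1.13 and 1.03 in unstimulated cells.

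**Figure D1:**
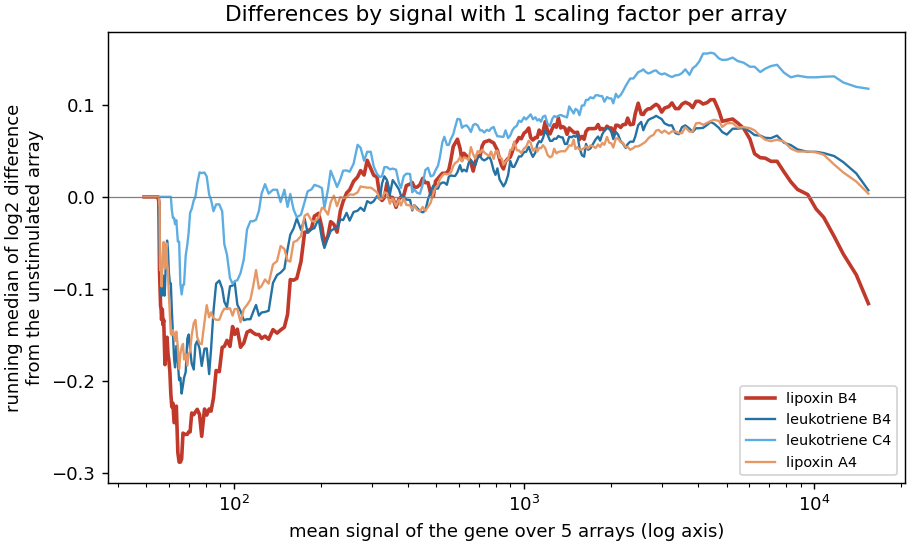
Running median of the log2 difference from the unstimulated array (vertical axis) against the mean signal of the gene over 5 arrays (horizontal log axis), with 1 scaling factor per array; the 4 lines are the stimulated arrays. Above a signal of 10000 the lipoxin B4 line lies below 0, and the median over these genes is -0.13, where that of leukotriene C4 is 0.12.

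Markers of the labelled cell type were measured. Of 8 monocyte and macrophage markers with a probe set of their own, 7 were measured, led by lysozyme (LYZ), with a signal of 46078 with lipoxin B4 and 46271 in unstimulated cells. With lipoxin B4, CEBPA had 13838, SPI1 5333 and MPO 808. CSF1R had 227.5, CD14 200.4 and ITGAM 183.3, not far above the highest B cell marker given below. Of T cell markers, 4 of 7 were measured, and the highest of them reached 62.7 with lipoxin B4 and 183.3 in unstimulated cells. CD3D, which defines T cells, was not above the floor in either. The highest B cell marker had 160.4 with lipoxin B4 and 149.1 in unstimulated cells, and the highest erythroid or megakaryocyte marker had 131.6 and 114.2 in the same order. Some markers on the other lists were brighter: PECAM1, which monocytes also express, had 4674 with lipoxin B4 and 4825 in unstimulated cells, MBP had 1510 and 1357, and KRT18 had 784 and 856.

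A stricter count asked where the lipoxin B4 array stood apart from all 4 others. At 2-fold from the nearest of the other arrays, 1 gene (0.00654%) was higher and 9 (0.0588%) were lower with lipoxin B4. The same count was 7 and 15 on the leukotriene B4 array, 29 and 14 on the leukotriene C4 array, 13 and 15 on the lipoxin A4 array, and 23 and 16 on the unstimulated array. At this size and over all measured genes, the lipoxin B4 array had fewer such genes than each other array, and 9 of its 10 were lower. Among 7099 genes with a mean signal over 500, where arrays vary less, 3 genes were higher and 2 lower at 1.5-fold from the nearest of the other arrays. By that rule 0 were higher and 1 lower on the leukotriene B4 array, 3 and 3 on the leukotriene C4 array, 0 and 1 on the lipoxin A4 array, and 9 and 1 on the unstimulated array. Among bright genes the lipoxin B4 array thus had more than leukotriene B4 and lipoxin A4 and fewer than leukotriene C4 and the unstimulated array.

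**Figure D2:**
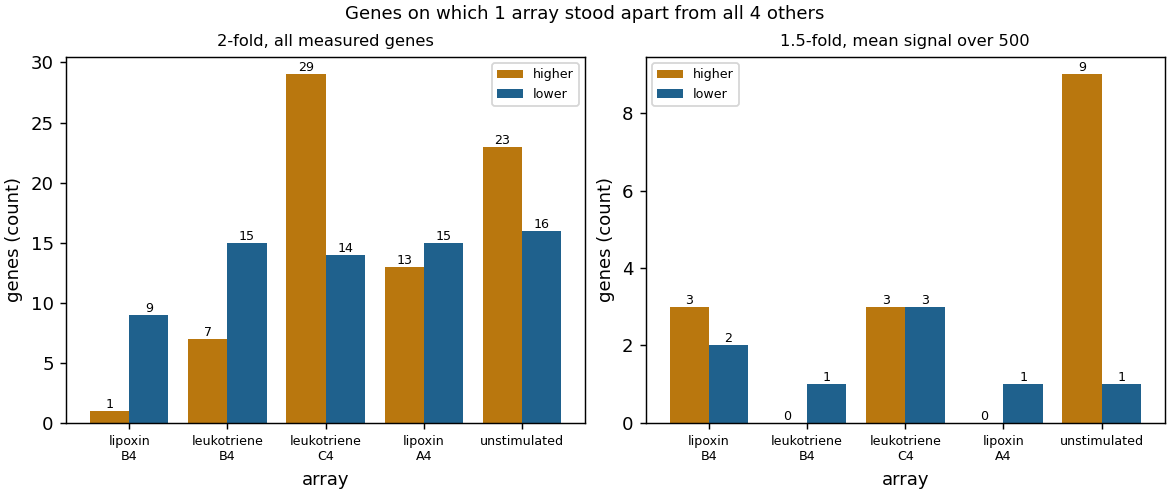
Number of genes (vertical axes) on which each array (horizontal axes) lay above or below all 4 others, at 2-fold over all 15299 measured genes (left) and at 1.5-fold over the 7099 genes with a mean signal over 500 (right). The lipoxin B4 array has 1 higher and 9 lower on the left and 3 higher and 2 lower on the right.

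The 5 bright genes that stood apart on the lipoxin B4 array were DDX27, MYL12A and YIPF4, which were higher, and EML3 and H2BC5, which were lower. MYL12A and YIPF4 are named here after their values were seen, and the other 3 are also named by the rules for ranks. Their promoters are shown because these are the bright genes whose brightest probe set put lipoxin B4 apart from every other array. Their other probe sets, given below, did not all show it. Each line gives the 150 bases before the annotated gene start, 5′ to 3′ on the strand of the gene, from RefSeq (GRCh38.p14). Capitals mark matches, on either strand, to the GC box GGGCGG, the CCAAT box CCAAT, the E-box CACGTG, the CRE core TGACG, the ETS core CCGGAAG and the TATA box TATAAA.
DDX27, chr20:49219266-49219415, plus strand: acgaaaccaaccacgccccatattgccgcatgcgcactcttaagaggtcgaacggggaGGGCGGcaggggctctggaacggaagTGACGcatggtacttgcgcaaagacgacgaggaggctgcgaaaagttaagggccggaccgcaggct
MYL12A, chr18:3247332-3247481, plus strand: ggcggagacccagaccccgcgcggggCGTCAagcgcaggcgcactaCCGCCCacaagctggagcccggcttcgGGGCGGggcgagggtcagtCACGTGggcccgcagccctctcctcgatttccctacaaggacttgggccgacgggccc
YIPF4, chr2:32277754-32277903, plus strand: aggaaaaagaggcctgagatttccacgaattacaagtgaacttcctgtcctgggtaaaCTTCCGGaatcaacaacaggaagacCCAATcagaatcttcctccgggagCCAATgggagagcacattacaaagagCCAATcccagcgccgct
EML3, chr11:62612776-62612925, minus strand: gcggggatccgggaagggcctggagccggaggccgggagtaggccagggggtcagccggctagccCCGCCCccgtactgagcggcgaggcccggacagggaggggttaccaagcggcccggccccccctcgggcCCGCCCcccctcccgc
H2BC5, chr6:26157971-26158120, plus strand: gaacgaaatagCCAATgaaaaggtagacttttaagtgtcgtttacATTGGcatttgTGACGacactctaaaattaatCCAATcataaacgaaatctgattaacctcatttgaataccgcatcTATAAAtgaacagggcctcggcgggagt
Over 27305 RefSeq promoters, windows of this length hold the GC box in 36.7%, the CCAAT box in 24.4%, the CRE core in 15.9%, the ETS core in 7.18%, the TATA box in 7.05% and the E-box in 4.68%. No motif is in all 5 windows. DDX27 and MYL12A, both higher, hold the GC box, and so does EML3, which was lower. YIPF4 and H2BC5 each hold 3 CCAAT boxes, and 1 was higher and the other lower. The G and C content ranged from 38.0% in H2BC5 to 80.0% in EML3.

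MYL12A encodes a regulatory light chain of nonmuscle myosin, which sets the contractility of the cell cortex. Its signal was 9926 with lipoxin B4, 5381 with leukotriene B4, 6456 with leukotriene C4, 5214 with lipoxin A4 and 6041 in unstimulated cells. On this probe set the lipoxin B4 array alone was high, by 0.72 on the log2 scale over unstimulated cells, which is 5.47 times the spread that the other 3 stimulated arrays had over 500 genes of similar signal. That spread leaves out the unstimulated array, so multiples of it here and below are not test values. The 3 other probe sets of MYL12A, all dim, had differences from unstimulated cells of 0.31, 0.49 and 0.75. Lipoxin B4 was highest on none of these 3, on which leukotriene B4 had 178.8, 128.7 and 90.9 against 169.4, 121.3 and 83.3 with lipoxin B4, so they did not show it standing apart. Of the other myosin light chain genes on the actin list, which were looked up after seeing MYL12A, MYL12B had 13926 with lipoxin B4, 11145 to 12076 on the other stimulated arrays and 12007 in unstimulated cells. MYL6 had 23105, 19120 to 19828 and 19594 on the same arrays, so on their brightest probe sets all 3 light chains were highest with lipoxin B4, MYL12B and MYL6 by little.

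DDX27, a DEAD-box RNA helicase of ribosome assembly, had a signal of 1997 with lipoxin B4, 1004 with leukotriene B4, 1222 with leukotriene C4, 1322 with lipoxin A4 and 985 in unstimulated cells. The log2 difference from unstimulated cells was 1.02, or 5.48 times the spread. Its other probe set gave 1049 with lipoxin B4, 918 to 987 on the other stimulated arrays and 828 in unstimulated cells, a difference of 0.34, so the 2 probe sets disagree on size. YIPF4, a membrane protein of the Golgi, had 1667 with lipoxin B4, 966 with leukotriene B4, 772 with leukotriene C4, 1049 with lipoxin A4 and 983 in unstimulated cells. Its difference was 0.76, and 3 dimmer probe sets gave 0.39, 0.44 and -0.75, so its direction was not shared by all of them.

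EML3, a microtubule-binding protein, led the named bright genes that were lower. Its signal was 504 with lipoxin B4, 800 with leukotriene B4, 947 with leukotriene C4, 761 with lipoxin A4 and 1692 in unstimulated cells, a log2 difference of -1.75 for lipoxin B4. All 4 stimulated arrays lay below the unstimulated one, and lipoxin B4 lay lowest. The other probe set had 687 with lipoxin B4, 665 to 819 on the other stimulated arrays and 1282 in unstimulated cells (-0.90), so on it lipoxin B4 did not lie lowest. H2BC5, a gene for histone H2B, had 964 with lipoxin B4, 1464 with leukotriene B4, 1811 with leukotriene C4, 1937 with lipoxin A4 and 2202 in unstimulated cells (-1.19). Its other probe set showed no such difference (-0.03). Histone H2B genes are near-identical copies, and both probe sets of H2BC5, like those of EML3 and DDX27, are of the kind that can bind several transcripts, so the level of the single gene is uncertain.

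At 1.5-fold against unstimulated cells, 54 (0.761%) of the 7099 bright genes were higher and 107 (1.51%) were lower with lipoxin B4. The corresponding counts were 32 and 92 for leukotriene B4, 40 and 90 for leukotriene C4, and 20 and 36 for lipoxin A4. At 1.5-fold, lipoxin B4 had more in each direction than the other 3. At 2-fold over the same bright genes, it had 3 higher and 13 lower. The leukotriene C4 array had 4 and 11, the leukotriene B4 array 1 and 12, the lipoxin A4 array 0 and 3. Lipoxin B4 thus did not lead in the higher direction at 2-fold, and its lead in the lower direction was small. The standard deviation of the log2 differences over bright genes was 0.24 for lipoxin B4 against unstimulated cells, the highest of the 10 pairs of arrays. Between lipoxin B4 and lipoxin A4, the 2 isomers at matched dose and time, this standard deviation was 0.17. It was 0.18 between lipoxin B4 and leukotriene B4, 0.19 between lipoxin B4 and leukotriene C4, and 0.17 between leukotriene B4 and lipoxin A4. Between the isomers 92 genes were at least 2-fold higher and 120 at least 2-fold lower with lipoxin B4, fewer in all than in the pair with unstimulated cells. Against leukotriene B4 these counts were 118 and 84, in all 202 against 212 for the isomers. The isomers were thus not the closest pair by this count. With 1 array each, neither a difference between the isomers nor the lack of one can be tested.

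EIF5A, a translation elongation factor that carries the amino acid hypusine, led the named bright genes that were higher. Its signal was 1182 with lipoxin B4, 319 with leukotriene B4, 919 with leukotriene C4, 830 with lipoxin A4 and 512 in unstimulated cells, a log2 difference of 1.21. Its other probe sets gave 0.50 and 0.31, and leukotriene B4 lay lowest on all 3 of them. DDX60L, a relative of the antiviral helicase DDX60, had 759 with lipoxin B4 and 739 with leukotriene B4, against 448 with leukotriene C4, 385 with lipoxin A4 and 362 in unstimulated cells. The 2 arrays with the higher values were close to each other on this probe set. The other probe set of DDX60L, a dim one, did not show this pairing. It had 82.6 with lipoxin B4, 77.4 with lipoxin A4 and 59.5 in unstimulated cells, with leukotriene B4 at the floor. TMA16, a protein tied to ribosome assembly in yeast, had 1170 with lipoxin B4 and 1079 with lipoxin A4, 516 and 629 with leukotrienes C4 and B4, and 651 in unstimulated cells. For TMA16 both lipoxin arrays were high. TRAPPC13, a subunit of a vesicle tethering complex, had 790 with lipoxin B4, 446 to 564 on the other stimulated arrays and 443 in unstimulated cells (0.84). Its other probe set gave 0.48, and lipoxin B4 was highest on it too. TAF15, an RNA-binding protein of the FET family, had 1398 with lipoxin B4, 1104 to 1296 on the other stimulated arrays and 813 in unstimulated cells (0.78). Its 3 other probe sets, all dim, gave 0.39, 0.12 and 0.00, and lipoxin B4 was highest on none of them.

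RNA45SN5, a gene of the ribosomal RNA precursor, had 770 with lipoxin B4, 857 with leukotriene B4, 825 with leukotriene C4, 504 with lipoxin A4 and 440 in unstimulated cells (0.81). Its other probe set had 233.2 with lipoxin B4 and 168.8 in unstimulated cells (0.47), but 83.9 with leukotriene B4. Control probe sets for the small subunit RNA were 2.63 to 5.75-fold higher with lipoxin B4 than in unstimulated cells. All of these controls were highest with leukotriene C4, so their order over the arrays was not that of RNA45SN5. Their part in the result was not tested. CROCCP2, a pseudogene of the centrosomal protein rootletin, had 767 with lipoxin B4, 483 to 632 on the other stimulated arrays and 447 in unstimulated cells (0.78). Its dimmer probe sets gave 0.57 and 0.29, and on the latter lipoxin A4 had 210.3 against 103.0 with lipoxin B4.

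The other named bright genes that were lower are given on all arrays, since the 4 comparisons share the unstimulated one. ANXA2P2, a pseudogene of annexin A2 whose probe set can also bind the parent transcript, had 2145 with lipoxin B4, 2313 with leukotriene B4, 2860 with leukotriene C4, 1999 with lipoxin A4 and 5898 in unstimulated cells (-1.46). The unstimulated array alone was high. ATXN2L, an RNA-binding protein of stress granules, had 418 with lipoxin B4, 367 to 525 on the other stimulated arrays and 996 in unstimulated cells (-1.25). Its other probe set had 179 with lipoxin B4, 240 to 404 on the other stimulated arrays and 636 in unstimulated cells (-1.83), so both showed it. GRIN2D, a subunit of the NMDA glutamate receptor, had 815 with lipoxin B4, 835 to 1227 on the other stimulated arrays and 1736 in unstimulated cells (-1.09), and a dim probe set gave -1.44. NAT14, an N-acetyltransferase-like protein, had 696 with lipoxin B4, 547 and 708 with leukotrienes B4 and C4, 1361 with lipoxin A4 and 1852 in unstimulated cells (-1.41). SOX12, a transcription factor, had 456 with lipoxin B4, 314 to 594 on the other stimulated arrays and 981 in unstimulated cells (-1.11). Its other probe set, a dim one, gave -0.51, with leukotriene C4 and lipoxin A4 at the floor on it. NOTCH2NLA, a human-specific copy of the NOTCH2 gene, had 372 with lipoxin B4 and 396 with lipoxin A4, 504 and 915 with leukotrienes C4 and B4, and 802 in unstimulated cells (-1.11). Signal of NOTCH2NLA cannot be separated from that of its copies on this array.

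**Figure D3:**
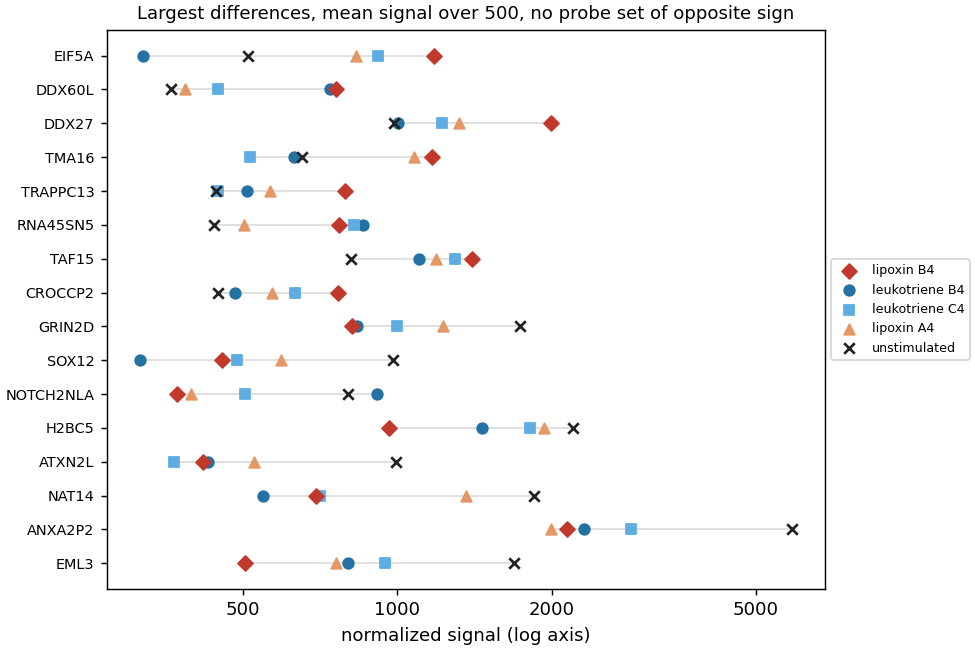
Normalized signal (horizontal log axis) of 8 bright genes each way, 1 point per array, ranked by difference among bright genes with no other measured probe set of the opposite sign, which leaves out DYNC1H1; genes run from most higher (top) to most lower (bottom). EML3 and H2BC5 lie lowest and DDX27 highest with lipoxin B4, and ANXA2P2 lies at 1999 to 2860 on all 4 stimulated arrays and at 5898 in unstimulated cells.

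Among genes above the floor on both arrays and with no other measured probe set of the opposite sign, the 10 with the largest differences each way were mostly dim. The condition on probe sets leaves out genes such as HECW1. ZNF385A, a p53-binding zinc finger protein, had 187.5 with lipoxin B4, 323.6 with leukotriene B4, 430.4 with leukotriene C4, 292.6 with lipoxin A4 and 665.0 in unstimulated cells (-1.83, or 6.05 times the spread). It was lower on all 4 stimulated arrays and lowest with lipoxin B4. The serotonin receptor gene HTR4 had 51.8 with lipoxin B4, 48.6 with leukotriene C4, 118.3 with leukotriene B4, 287.3 with lipoxin A4 and 197.0 in unstimulated cells (-1.93). The 2 lipoxins lay on opposite sides of the unstimulated value on this dim probe set. The other probe set of HTR4 was at the floor with both lipoxins and in unstimulated cells (0.00). TSPAN9, a tetraspanin, had 94.8 with lipoxin B4, 159.9 to 180.7 on the other stimulated arrays and 283.2 in unstimulated cells (-1.58), and its other probe set gave -1.13, a bound. The other 6 of these lower genes were ZNF135, OAS3, FAM181A, FATE1, WNT16 and CD8A, with signals of 50.3 to 62.7 with lipoxin B4 and 166.2 to 199.2 in unstimulated cells. Such values lie near the floor, where the spread of the other stimulated arrays was 0.51 to 0.65 on the log2 scale.

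CASTOR2, a homologue of the arginine sensor CASTOR1 of the mTOR pathway, led the better measured higher genes with 513 with lipoxin B4, 438 with leukotriene B4, 592 with leukotriene C4, 498 with lipoxin A4 and 164 in unstimulated cells (1.64). The unstimulated array was the low one. UBBP2, a ubiquitin pseudogene that can share probes with ubiquitin B, had 303.6 with lipoxin B4, 250.5 to 332.9 on the other stimulated arrays and 95.7 in unstimulated cells (1.67). CCDC88B, a scaffold protein of immune cells, had 197.8 with lipoxin B4, 181.5 to 252.2 on the other stimulated arrays and 64.6 in unstimulated cells (1.61). MIA2, a protein of cargo export from the endoplasmic reticulum, stood more apart. It had 420.7 with lipoxin B4, 228.6 to 273.4 on the other stimulated arrays and 153.3 in unstimulated cells (1.46), although its other probe set showed no difference (0.00). The zinc finger gene ZNF684 had 177.8 with lipoxin B4, 52.9 to 92.9 on the other stimulated arrays and 53.9 in unstimulated cells (1.72). Its other probe set gave 0.48, with 111.6 with lipoxin B4 and 118.4 with lipoxin A4, so lipoxin B4 was not highest on it. The other 5, ZNF319, MFAP2, TFAP2C, PPP1R13L and CCZ1B, had differences of up to 1.69. SLC4A5, a bicarbonate transporter, was at least 2.46-fold higher, known as a bound from 2 probe sets; it had 119.6 with lipoxin B4, 144.8 with lipoxin A4 and 48.6 (the floor) in unstimulated cells.

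**Figure D4:**
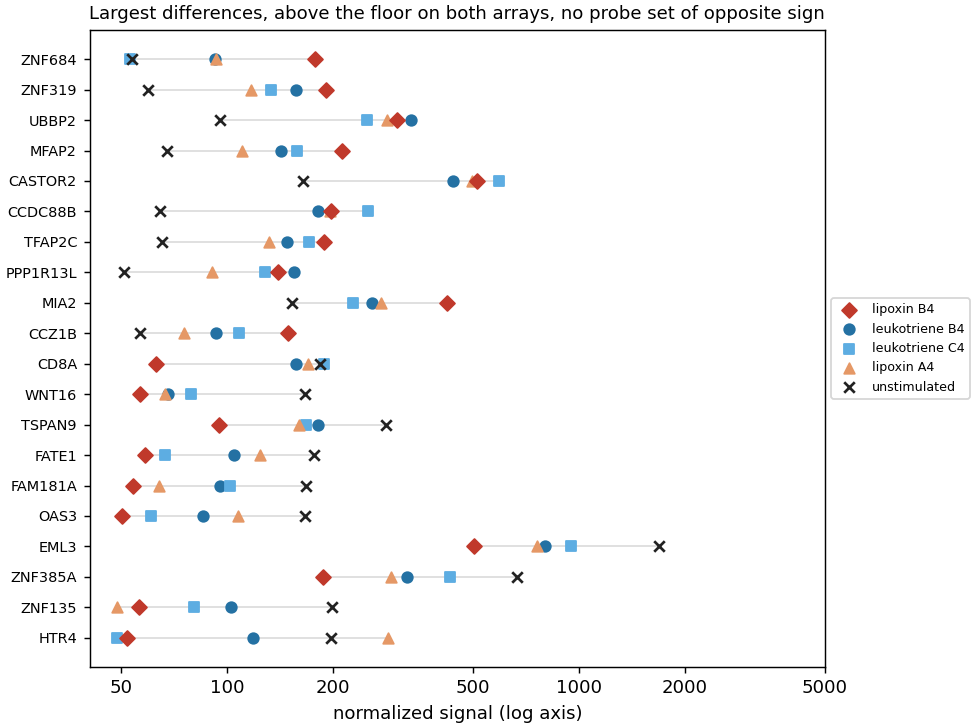
Normalized signal (horizontal log axis) of the 20 genes (10 higher, 10 lower) of largest difference with both signals above the floor and no other measured probe set of the opposite sign, 1 point per array; a point at 48.6 is at the floor. CASTOR2, UBBP2 and CCDC88B have 1 low array, the unstimulated one, and CD8A has 1 low array, lipoxin B4.

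The 10 genes on which lipoxin B4 stood 2-fold apart from every other array included AKR1E2 as the higher one, an aldo-keto reductase that was at least 2.34-fold higher. It had 113.8 with lipoxin B4 and was not above the floor on the other 4 arrays, and its other probe set was at the floor with lipoxin B4. CD8A, a chain of the T cell coreceptor, had 62.7 with lipoxin B4, 157.2 with leukotriene B4, 189.1 with leukotriene C4, 169.8 with lipoxin A4 and 183.3 in unstimulated cells (-1.55). Of the other T cell markers, CD4, which monocytes also express, was at the floor with lipoxin B4 and at 141.8 in unstimulated cells. CD3E had 59.8 with lipoxin B4 and was at the floor in unstimulated cells, so the 4 measured T cell markers did not share a direction, and their part in the CD8A difference was not tested. PDE6G, an inhibitory subunit of the phototransduction phosphodiesterase, had 89.7 with lipoxin B4, 202.6 to 274.7 on the other stimulated arrays and 253.4 in unstimulated cells (-1.50). The noncoding NDUFV1-DT had 80.5 with lipoxin B4, 168.3 to 208.8 on the other stimulated arrays and 213.3 in unstimulated cells (-1.41). These 3 genes had values close together on the other 4 arrays and a low one with lipoxin B4.

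AKR1E2 and the remaining 6 are named after their values were seen. ADM2, a peptide hormone of the adrenomedullin family, was at the floor with lipoxin B4, at 148.9 to 256.5 on the other stimulated arrays and at 208.9 in unstimulated cells, at least 4.30-fold lower. RABGEF1P1, a pseudogene, was at least 5.50-fold lower and RHBDF1, an inactive rhomboid, at least 3.18-fold lower. The other probe set of RHBDF1 gave -0.12, a bound, and leukotriene C4 and lipoxin A4 were at the floor on it too. HECW1, a ubiquitin ligase, had 49.7 with lipoxin B4 and 158.4 in unstimulated cells (-1.67), but its other probe set ran the other way, with 55.3 with lipoxin B4 and the floor in unstimulated cells, and the mean of both was -0.74. FAM174B was at least 2.24-fold lower. On its other probe set (-0.42) lipoxin B4 had 78.6 and was not lowest, with leukotriene C4 at 54.0. KSR1, a scaffold of the RAF and MEK kinases, had 62.5 with lipoxin B4, 138.8 to 156.6 on the other stimulated arrays and 131.4 in unstimulated cells (-1.07), but 3 further probe sets gave 0.00, 0.27 and 1.01, so its direction differed between probe sets. Among genes above the floor on all 5 arrays, the rule on gaps named besides CD8A, PDE6G and NDUFV1-DT the lower genes LILRB1, AQP2, SPNS2, STX17-DT, TSPAN33, PRSS30P and SLC25A42. Of these STX17-DT was the brightest, with 163.5 with lipoxin B4, 303.9 to 396.9 on the other stimulated arrays and 386 in unstimulated cells. LILRB1, an inhibitory receptor of myeloid cells, had 52.3 with lipoxin B4, 104.0 to 128.5 on the other stimulated arrays and 140.0 in unstimulated cells, and on its other probe set lipoxin B4 and leukotriene B4 were both at the floor.

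Besides ZNF684, the rule on gaps named as higher LEKR1, RPL10L, RAB38, LOC389831, FGF22, GAS5, CFAP73, CROT and ONECUT3, which leaves out genes such as YIPF4 with a probe set of the opposite sign. CROT, a carnitine acyltransferase of peroxisomes, was the brightest of them with lipoxin B4, with 371.3 with lipoxin B4, 170.9 with leukotriene B4, 235.8 with leukotriene C4, 195.2 with lipoxin A4 and 234.6 in unstimulated cells (0.66). CFAP73, a protein of the ciliary axoneme, had 260.6 with lipoxin B4, 128.3 to 164.9 on the other stimulated arrays and 123.5 in unstimulated cells (1.08). Its other probe set gave 0.96, but with 94.4 with lipoxin B4 and 133.1 with leukotriene C4 lipoxin B4 was not highest on it. GAS5, a noncoding RNA that hosts small nucleolar RNAs, had 186.0 with lipoxin B4, 69.3 to 117.1 on the other stimulated arrays and 85.6 in unstimulated cells (1.12). For each of the 3 the lipoxin B4 array was the highest on the probe set that stands for the gene. RPL10L is a retrogene of RPL10, and its probe set may read the parent gene.

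Second probe sets gave a measure of how often a difference was seen again. Of the 54 genes at least 2-fold higher that had another measured probe set, 11 (20.4%) had another at least 1.5-fold higher, against 13.0% of all 7474 genes with several measured probe sets. Of the 79 at least 2-fold lower, 19 (24.1%) had another at least 1.5-fold lower, against 11.3% of all. Most 2-fold differences with a second probe set were thus not matched by it at 1.5-fold.

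Expression of the eicosanoid pathway itself was described gene by gene. FPR2, the receptor of lipoxin A4, had 60.5 with lipoxin B4 and was at the floor in unstimulated cells, and FPR1 had 81.5 and 64.6, so both were barely measured in MonoMac6. LTB4R, the high-affinity leukotriene B4 receptor, had 657 with lipoxin B4, 681 with leukotriene B4, 701 with leukotriene C4, 685 with lipoxin A4 and 926 in unstimulated cells (-0.49). It was 2.15 times the spread below unstimulated cells, but its other probe sets gave -0.21 and 0.09. CYSLTR1, a cysteinyl leukotriene receptor, had 1031 with lipoxin B4 and 1074 in unstimulated cells (-0.06), and CYSLTR2 was at the floor with lipoxin B4 and at 69.2 in unstimulated cells. GPR18, a G protein-coupled receptor named after its values were seen, had 2466 with lipoxin B4, 2721 to 3203 on the other stimulated arrays and 3104 in unstimulated cells (-0.33).

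Over the receptor list, 12 of 15 measured members were below 0 and 3 above, with a median log2 difference of -0.23 for lipoxin B4. It was -0.12 both with the mean of all probe sets and with the floor at the 30th percentile. The same list had medians of -0.09 with leukotriene B4, -0.05 with leukotriene C4 and -0.02 with lipoxin A4. Over all 15299 genes the lipoxin B4 median was 0.00. None of the 15 was 2-fold apart, where 0.909% of all genes were higher and 1.27% lower. The median signal of these members was 74.0, close to the floor, so the list rests mainly on dim probe sets. Lipoxin B4 gave the lowest of the 5 values for 7 of the 15, against 14.4% of all genes. FPR3, LTB4R2 and ALOX15 had no measured probe set with 1 symbol.

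After quantile normalization the enzymes differed little. ALOX5AP, the protein that presents arachidonic acid to the lipoxygenase ALOX5, was among the brightest genes with 31542 with lipoxin B4, 32732 to 34196 on the other stimulated arrays and 32337 in unstimulated cells (-0.04). Its difference was -0.41 by 1 factor and -0.27 matched for signal, so it depended on the scaling and no direction is given for it. LTA4H, which makes leukotriene B4, had 3709 with lipoxin B4 and 3865 in unstimulated cells (-0.06). ALOX5 had 134.5 and 137.6 on the same arrays (-0.03), and ALOX12 was at the floor on both. LTC4S, which makes leukotriene C4, had 235.6 with lipoxin B4, 227.7 with leukotriene C4, 223.1 with lipoxin A4, 141.5 with leukotriene B4 and 173.4 in unstimulated cells (0.44). The LTC4S difference was 1.08 times the spread. Across 27 measured genes of eicosanoid synthesis and breakdown, 10 were above 0, 15 below and none 2-fold apart, with a median of -0.04.

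Lipid synthesis genes had a median below 0 with lipoxin B4 that depended on the probe sets used. Of 24 measured genes of cholesterol and fatty acid synthesis, 16 were below 0, 7 above and none 2-fold lower, with a median of -0.12 (-0.13 by 1 factor and -0.14 matched for signal). It was -0.0065 with the mean of all measured probe sets of each gene, and 0.048 without probe sets that can bind several transcripts, so no direction is given for the list. The medians on the other stimulated arrays were -0.03 with leukotriene B4, -0.01 with leukotriene C4 and -0.02 with lipoxin A4. FASN, the fatty acid synthase, named after its values were seen, had 5288 with lipoxin B4, 5728 with leukotriene B4, 6199 with leukotriene C4, 7414 with lipoxin A4 and 9332 in unstimulated cells (-0.82). It was lowest with lipoxin B4 and below unstimulated cells on every stimulated array. SCD, the stearoyl-CoA desaturase, had 12267 with lipoxin B4, 14202 to 15058 on the other stimulated arrays and 14344 in unstimulated cells (-0.23), and DHCR7, the last enzyme of cholesterol synthesis, had 4249, 4942 to 5038, and 5419 (-0.35). HMGCS1, an early enzyme of the same pathway, lay the other way with 2818 with lipoxin B4 and 2394 in unstimulated cells (0.23), and so did MSMO1 with 8900 and 7450 (0.26). Of 18 genes of the LXR and PPAR list, which covers sterol and fatty acid sensors and their targets, 13 were below 0 and 9 were lowest of all 5 arrays with lipoxin B4, against 14.4% of all genes. That share was 19.9% among the 7099 genes with a mean signal over 500. The list's median was -0.06 (-0.0135 by 1 factor and 0.0061 with the mean of all probe sets), so its sign turned. Its members near the floor lay on both sides, with ANGPTL4 at least 1.67-fold higher and ABCG1 at least 1.52-fold lower.

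Cytoskeletal genes lay lower in the median. Of 28 microtubule and tubulin genes, 19 were below 0 and 8 above, and 3 were 2-fold lower and 0 higher, where 1.27% of all genes were lower and 0.909% higher. The list was chosen with earlier results of these data known, so these counts describe it and test nothing. The median was -0.10 (-0.18 by 1 factor and -0.06 without probe sets that can bind several transcripts), and it was -0.04 with leukotriene B4, -0.06 with leukotriene C4 and -0.05 with lipoxin A4. Besides EML3 the 2-fold lower genes were DYNC1H1 and MAP1A. DYNC1H1, the heavy chain of cytoplasmic dynein, had 1081 with lipoxin B4, 2077 with leukotriene B4, 1567 with leukotriene C4, 1246 with lipoxin A4 and 2422 in unstimulated cells (-1.16). Another of its probe sets had 268.0, 442.6, 345.2, 250.5 and 520.4 in the same order of arrays (-0.96), with the 2 lipoxins lowest on both probe sets. The 4 other probe sets of DYNC1H1, at or near the floor, gave -0.57 to 0.47. MAP1A was at least 2.10-fold lower, at the floor with lipoxin B4 and at 102.0 in unstimulated cells. Its other probe set was at the floor on both of these arrays (0.00).

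Of 25 actin cytoskeleton genes, 18 were below 0 and 13 (52.0%) were lowest of the 5 arrays with lipoxin B4, against 14.4% of all genes. That share was 19.9% among the 7099 genes with a mean signal over 500. It was 35.3% among the cytosolic ribosomal protein genes, which are bright too. The median of the actin list was -0.09 (-0.27 by 1 factor), and the other stimulated arrays had -0.09 with leukotriene B4, -0.04 with leukotriene C4 and -0.06 with lipoxin A4. None was 2-fold apart. TLN1, which links integrins to actin and is named after its values were seen, had 1290 with lipoxin B4, 1473 with leukotriene B4, 1566 with leukotriene C4, 1946 with lipoxin A4 and 2512 in unstimulated cells (-0.96). It was lowest with lipoxin B4, as were WAS, an activator of actin branching, with 2828, 3451 to 3469 and 3994 (-0.50), and vimentin (VIM), with 20802, 23786 to 24831 and 24748 (-0.25), each given for lipoxin B4, the other stimulated arrays and unstimulated cells. The 3 myosin light chains described above were among the 7 members above 0.

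Of 20 measured monocyte identity genes, 14 were below 0 with lipoxin B4, with a median of -0.13, and the medians were -0.15 with leukotriene B4, -0.10 with leukotriene C4 and -0.10 with lipoxin A4. The lineage transcription factor CEBPA, named after its values were seen, had 13838 with lipoxin B4, 14848 with leukotriene B4, 15165 with leukotriene C4, 16372 with lipoxin A4 and 18202 in unstimulated cells (-0.40). SPI1 had 5333 with lipoxin B4, 4639 to 6098 on the other stimulated arrays and 7675 in unstimulated cells (-0.53). CD4 was at least 2.92-fold lower with lipoxin B4, the list's single 2-fold difference, and it was at the floor with leukotriene B4 too. IRF8, which lay the other way, had 6752 with lipoxin B4 and 6214 in unstimulated cells (0.12).

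**Figure D5:**
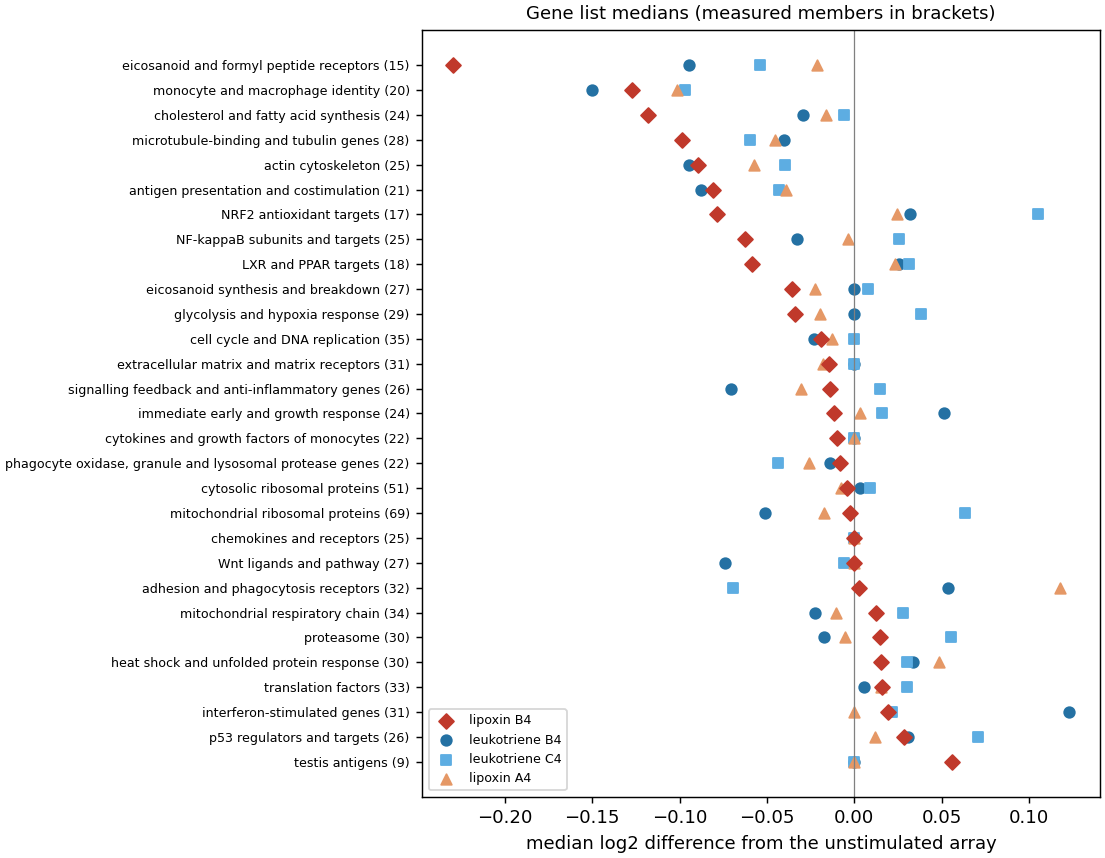
Median log2 difference from the unstimulated array (horizontal axis) of 29 gene lists (vertical axis, measured members in brackets), 1 point per stimulated array. With lipoxin B4 the eicosanoid and formyl peptide receptors lie lowest at -0.23, and 19 of the 29 medians lie below 0.

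Inflammatory and interferon genes showed no common direction. Of 25 NF-kappaB subunits and targets, 15 were below 0 and 10 above, with a median of -0.06 (-0.02 by 1 factor). SOD2, the mitochondrial superoxide dismutase, was the list's only gene at 2-fold. It had 546 with lipoxin B4, 431 with leukotriene B4, 447 with leukotriene C4, 349 with lipoxin A4 and 271 in unstimulated cells (1.01, or 3.72 times the spread), from a single measured probe set. It was under 2-fold by 1 factor (0.99), matched for signal (0.98) and with a pseudocount (0.89). Of 31 interferon-stimulated genes, 16 were above 0, 10 below and 5 at 0, with a median of 0.02. MX1, an antiviral GTPase, was at least 2.31-fold higher with 112.3 with lipoxin B4, 89.4 to 104.3 on the other stimulated arrays and the floor in unstimulated cells. OAS3, an interferon-induced oligoadenylate synthetase, lay the other way with 50.3 with lipoxin B4 and 166.2 in unstimulated cells (-1.72), and both rest on dim probe sets. NR4A1, an immediate early nuclear receptor, was, by the brightest of its probe sets, at least 2.33-fold higher, with 113.0 with lipoxin B4 and 112.4 with lipoxin A4, and its other probe sets gave 0.18 and -0.44.

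Other list members at 2-fold were few. Of 26 p53 regulators and targets, 2 were 2-fold higher and 1 lower, with a median of 0.03 (-0.02 matched for signal). The 2 that were higher, PPP1R13L (140.0 against 51.0 in unstimulated cells) and PPP1R13B (111.5 against 52.1), encode related p53-binding proteins of the ASPP family, of which PPP1R13L is known as an inhibitor of p53. PPP1R13L had 90.8 to 155.4 on the other stimulated arrays and PPP1R13B 89.0 to 117.9, so the unstimulated array was the low one for both. The classical p53 target CDKN1A had 323.8 with lipoxin B4 and 322.0 in unstimulated cells (0.01), and MDM2 had 875 and 718 (0.28). Among 31 genes of the extracellular matrix, the collagen chain COL6A1 was 2-fold higher and COL6A2 at least 2.53-fold lower, and other probe sets gave -0.45 to 0.05 for COL6A1 and 0.05 for COL6A2. MFAP2, a microfibril protein, had 212.2 with lipoxin B4, 110.4 to 157.6 on the other stimulated arrays and 67.4 in unstimulated cells (1.65). EPAS1, a hypoxia-inducible factor, had 63.2 with lipoxin B4, 62.2 with leukotriene C4 and 135.2 in unstimulated cells (-1.10). Its other probe set was at the floor with lipoxin B4 and in unstimulated cells (0.00). Of 29 genes of glycolysis and the hypoxia response, 20 were below 0, with a median of -0.03.

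Housekeeping lists lay near 0 with lipoxin B4 after quantile normalization. The medians were 0.01 for 34 genes of the respiratory chain, 0.01 for 30 proteasome genes, 0.02 for 30 heat shock and unfolded protein genes, -0.02 for 35 cell cycle genes and -0.00 for 69 mitochondrial ribosomal proteins. By 1 factor the respiratory chain had -0.08, the heat shock list -0.01 and the cell cycle list 0.03, so none of these signs is given as a direction. None of the 5 lists had a member at 2-fold, where 0.909% of all genes were higher and 1.27% lower.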

How the data were processed

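The authors deposited linear intensity values for 54675 probe sets on each of 5 arrays. Per the submitters' processing notes they used GCOS 1.4, with settings not given in the sources used here. A mean trimmed by 2% at either end was 500.1 on every array. Groups came from sample titles.

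Genes were named from the 41097 probe sets with 1 symbol in the platform annotation (1801 had several, 11777 were not listed), and 41043 matched the gene table of assembly GRCh38.p14. Log2 signals were quantile normalized over all probe sets and raised to a floor at the 50th percentile of mean signal. A gene stood for its probe set of highest mean signal, and 7474 of 15299 genes had several. The spread is the pooled standard deviation of the other 3 stimulated arrays over the 500 genes of nearest signal, turned into the spread of a difference.

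Members, 29 gene lists, 7 marker lists and rules were chosen with earlier results of these data known. Rules named up to 10 genes each way by difference (above the floor on both arrays) or by gap to the nearest other array, up to 8 each way over a signal of 500, up to 3 each way as a bound backed by another probe set, up to 4 list members per list each way at 2-fold, and always the leukotriene and lipoxin enzymes and receptors. The rules by rank took a gene only if no other measured probe set had the opposite sign, and genes named after their values were seen are outside them. With 1 array per condition no test or interval was computed, and the number of arrays limits the precision. The counting was checked on simulated data. Python 3.11.15, numpy 2.4.6 and pandas 2.3.3 were used. Alternatives in scaling, floor, fold, probe set and arrays left out were run.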

Additional observations from a re-analysis of the deposited data

Results flagged for a closer look

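Of 6 control probe sets for ribosomal RNA, which entered no comparison, 5 were brighter with lipoxin B4 than in unstimulated cells. For the small subunit RNA the fold was 4.69 at the 5′ end, 5.75 in the middle and 2.63 at the 3′ end. The middle probe set had a normalized signal of 1048 with lipoxin B4, 912 with leukotriene B4, 2973 with leukotriene C4, 364 with lipoxin A4 and 182 in unstimulated cells. For the large subunit RNA the fold was 3.39 at the 5′ end and 1.53 in the middle. The sixth, at the 3′ end of the large subunit RNA, was dim, with 54.0 with lipoxin B4 and 58.2 in unstimulated cells. The same 5 probe sets were also above the unstimulated array on the other 3 stimulated arrays, so the unstimulated array was the low one. The cause was not tested. Groups of 1 array hold no replicates in which an outlying sample could be looked for.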

How the results depend on the processing

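Counts of genes at least 2-fold higher and lower, 139 and 195 as reported, were 80 and 308 with 1 scaling factor per array, 16 and 15 at 3-fold, 1055 and 1114 with the floor at the 30th percentile, and 6 and 18 with it at the 70th. Matched for signal, these counts were 161 and 163. Genes standing apart from all other arrays, 1 higher and 9 lower as reported, were 0 and 2 at 3-fold, 106 and 99 with the 30th percentile floor, 0 and 0 with the 70th, 2 and 3 with a pseudocount of 50 in place of the floor, and 0 and 5 with averaged probe sets. They were 7 and 14 without the leukotriene B4 array, 4 and 14 without leukotriene C4 and 8 and 12 without lipoxin A4. With 1 factor 14 were lower, and matched for signal 2 were higher. Fewer arrays or a lower floor raise these counts by construction, and the other causes were not tested. Bright genes at 2-fold in place of 1.5-fold numbered 3 and 13, and with the mean of all probe sets 66 were lower at 1.5-fold. KSR1 turned to 0.0506 with the mean of all probe sets, and with probe sets that can bind several transcripts left out, an alternative chosen after seeing the data, COL6A1 turned to -0.45 and COL6A2 to 0.0526. Of 60 named genes at least 2-fold apart, 22 stayed so in every planned setting that measured them and 38 did not. The number of list medians below 0, 19 of 29, was 14 to 24. No paired analysis was possible because each condition has 1 array.

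Signal over background limits what can be read: a difference of a gene with a signal under 200 lies in the range where single arrays differ most.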
